A study of Mus musculus with 6 samples.

Results

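The cells described here are 616 CD4 T cells from CT2A brain tumors of mice, divided into cells whose T cell receptor was shared with at least 1 other such cell (expanded) and cells whose receptor was found in 1 cell (single). They were taken from 12654 barcodes with receptor contigs, 8359 from tumors at day 13 and 4295 from tumors at day 19. A barcode was kept if it held exactly 1 TRA and 1 TRB contig, at least 5000 unique molecular identifiers (UMIs) of genes, at most 10% mitochondrial UMIs, at least 1 UMI of Cd4, none of Cd8a or Cd8b1, and at most 3 UMIs of the myeloid genes C1qa, Lyz2 and Csf1r together. Cells of 1 clonotype carried the same nucleotide CDR3 in both chains within 1 contig file. At day 13 the cells numbered 329, of which 38 in 17 clonotypes were expanded and 291 were single. At day 19 they numbered 287, of which 101 in 36 clonotypes were expanded and 186 were single. Cells with at least 1 UMI of Foxp3 and cells with none were compared apart. The cells were thus chosen by measured values, namely their receptor sequences, their depth and the UMIs of those genes, and the shares of expanded cells below are descriptions.

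CT2A is a mouse glioma cell line, grown here inside the skull of wild-type C57BL/6J mice aged 6 to 8 weeks. Sorted CD3+ tumor infiltrates, with CD4+ and CD8+ gates, were run on the 10x 5' platform with libraries for RNA, for antibody tags and for T cell receptors. Day 13 drew on 16 mice, 4 to a pool, and day 19 on 4 mice. The mice and their tumors carried no further allele or agent in the labels, and within a day expanded and single cells come from the same libraries. Each day is 1 matrix, hence 1 sample, and there is no replicate check and no test of any difference between expanded and single cells. Ratios are given with exact 95% intervals that cover counting error only. The 4 contig files of a day had no barcode in common, but the labels do not tie them to pools or mice, and they were not used as replicates. At day 19 4 expanded and 18 single clonotypes also occurred in another file of that day, and at day 13 0 did.

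When a naive CD4 T cell meets its antigen it divides, and its daughters inherit the same pair of rearranged receptor chains, so that cells sharing both CDR3 sequences are taken to descend from 1 ancestor. Conventional CD4 T cells can become helper cells that secrete cytokines such as interferon gamma, while regulatory T cells, which depend on the transcription factor Foxp3, restrain other immune cells. In tumors, repeated antigen contact is known to induce inhibitory receptors such as PD-1 and LAG-3, and to silence the genes by which resting T cells recirculate through lymphoid tissue.

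UMIs of Cd3d, a subunit of the CD3 complex, were found in 99.4% of the cells at day 13 and 98.6% at day 19, and UMIs of the kinase gene Lck in 96.4% and 97.6%. The median depth was 7288 UMIs in expanded and 6557 in single cells at day 13, and 8592 and 7661 at day 19. Expanded cells summed to 325140 gene UMIs at day 13 and 1057649 at day 19, single cells to 2503881 and 1880961. Contig file 2 held 174 of the 287 cells of day 19, and 137 of these carried that file's most common multiplexing tag. In the other 7 files, 88 of 90 cells of day 13 file 3 and every cell of the others carried their file's tag. In all, 58 barcode sequences with contigs occurred on both days, 0 of them among the 616 cells. The limit on myeloid UMIs removed 192 barcodes at day 13 and 269 at day 19. Just inside it, with 3 such UMIs, lay 11 and 21 cells, and just outside, with 4, lay 4 and 10. Even so, some kept cells held more than 10 UMIs of the antigen-presenting cell genes H2-Aa, H2-Ab1, Fscn1, Tyrobp and Spi1. Among cells without Foxp3 these were 6 of 31 expanded and 25 of 201 single cells at day 13, and 8 of 78 and 5 of 121 at day 19. Ratios are therefore also given without such cells where this matters. Whether these barcodes held more than 1 cell was not tested.

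The CDR3 sequences of the 3 largest clonotypes of each day are shown because they define the expanded families whose genes are described below. Letters run 5' to 3', and capitals mark the bases between the stretches that at least 80% of the other CDR3s of the same V gene and the same J gene share, the part most particular to each receptor.
Day 13 clonotype A, TRA (TRAV14D-2, TRAJ23): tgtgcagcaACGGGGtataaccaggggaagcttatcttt
Day 13 clonotype A, TRB (TRBV12-2+TRBV13-2, TRBJ2-1): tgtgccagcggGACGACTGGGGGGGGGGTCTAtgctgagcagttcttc
Day 13 clonotype B, TRA (TRAV7-1, TRAJ13): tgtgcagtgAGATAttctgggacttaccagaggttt
Day 13 clonotype B, TRB (TRBV13-1, TRBJ2-7): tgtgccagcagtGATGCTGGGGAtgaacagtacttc
Day 13 clonotype C, TRA (TRAV13D-2, TRAJ33): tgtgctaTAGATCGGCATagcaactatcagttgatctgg
Day 13 clonotype C, TRB (TRBV12-2+TRBV13-2, TRBJ1-2): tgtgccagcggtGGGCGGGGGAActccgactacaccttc
Day 19 clonotype A, TRA (TRAV6-7-DV9, TRAJ31): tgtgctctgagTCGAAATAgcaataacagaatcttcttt
Day 19 clonotype A, TRB (TRBV31, TRBJ1-1): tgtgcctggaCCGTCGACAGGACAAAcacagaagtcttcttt
Day 19 clonotype B, TRA (TRAV7-3, TRAJ31): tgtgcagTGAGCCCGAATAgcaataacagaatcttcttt
Day 19 clonotype B, TRB (TRBV19, TRBJ2-5): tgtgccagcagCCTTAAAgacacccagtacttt
Day 19 clonotype C, TRA (TRAV8-1, TRAJ6): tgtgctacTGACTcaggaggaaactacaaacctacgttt
Day 19 clonotype C, TRB (TRBV29, TRBJ1-3): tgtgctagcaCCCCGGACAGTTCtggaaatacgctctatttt

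The 2 largest clonotypes of day 19 used the same TRA joining gene, TRAJ31, and clonotypes A and C of day 13 the same TRB variable call, TRBV12-2+TRBV13-2. That call was made in 4 of 17 expanded clonotypes of day 13 (23.5%, 95% exact interval 6.81 to 49.9) against 30 of 291 single ones (10.3%), a difference within counting error. At day 19 the order was the other way, with 1 of 36 (2.78%) against 15 of 186 (8.06%). The 4 expanded clonotypes of day 19 that recurred among the gated cells of another file were counted in each file apart, so that a cell of such a clonotype can be counted as single. Apart from these recurrences of both chains, 0 expanded clonotypes shared a TRA or TRB CDR3 with a single cell of the same day. No amino acid pair was encoded by more than 1 nucleotide clonotype. The invariant TRAV11 and TRAJ18 pairing of natural killer T cells was found in 5 single cells at day 13 and 4 at day 19, and in 0 expanded cells. The TRA CDR3 had a median of 13 amino acids in expanded and 14 in single clonotypes on both days, and the TRB CDR3 14 in both.

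Expanded cells made up a larger share of the CD4 T cells at day 19 than at day 13. At day 13 the shares in the 4 contig files were 17.4%, 7.84%, 6.67% and 17.6% (n = 69, 102, 90 and 68 cells), and 11.6% over all 329 cells (95% exact interval 8.30 to 15.5). At day 19 they were 0 of 10 cells in file 1, which allows a share of up to 30%, then 42.5% (n = 174), 28.3% (n = 53) and 24% (n = 50), and 35.2% over all 287 cells (29.7 to 41.0). Day 19 files 2, 3 and 4 lay above every file of day 13, and file 1 was too small to place. The number of mice differed between the days, and the labels do not give it for a contig file. A file of more cells also gives a clonotype more chances to recur. Neither the number of mice nor the size of a file can be told apart from the day. Most expanded clonotypes were small. At day 13 14 held 2 cells and 3 held 3 or 4. At day 19 25 held 2 cells, 9 held 3 or 4 and 2 held 5 or more, the largest 15.

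**Figure D1:**
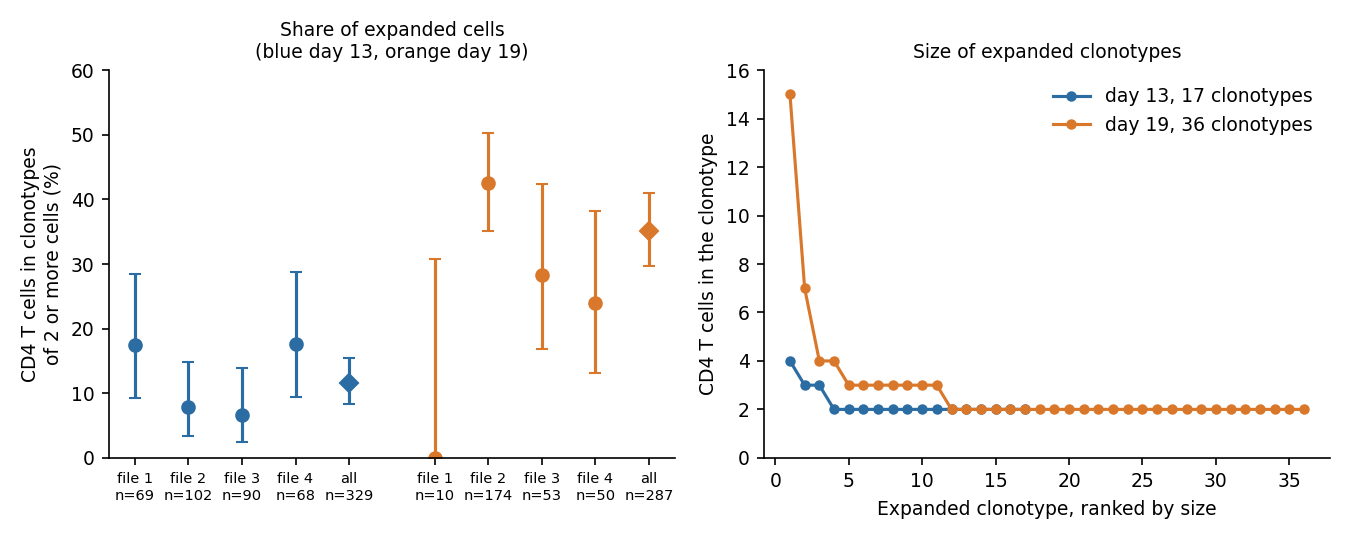
Left, the share of gated CD4 T cells that were expanded, in percent, in each contig file of day 13 and day 19, with diamonds for all cells of a day and bars for 95% exact intervals; right, cells per expanded clonotype against its rank by size. The diamonds stand at 11.6% and 35.2%, and the largest clonotypes hold 4 and 15 cells.

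Clone size was counted among the gated cells, and it understates the families. Of the expanded clonotypes, 7 of 17 at day 13 and 25 of 36 at day 19 had further paired barcodes that missed a limit on depth or on a gene. Day 19 clonotype A, with 15 gated cells, had 46 paired barcodes, clonotype B 11 for 7 cells and clonotype C 23 for 4. By the same count, 34 single cells of day 13 and 46 of day 19 had a further paired barcode outside the gate. CD8-gated cells carried 0 of the expanded CD4 receptors, and shared the receptors of 1 single cell at day 13 and 3 at day 19. A single nucleotide clonotype was found on both days.

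Cells with Foxp3 RNA were a smaller share of expanded than of single cells on both days, although at day 13 the direction turned where expanded meant 3 or more cells (40% of 10 cells). Since deeper cells are more likely to show a given RNA, each cell was first thinned to 5000 UMIs. At day 13, 15.8% of expanded cells (6 of 38, 95% exact interval 6.02 to 31.3) and 26.5% of single cells (77 of 291, 21.5 to 31.9) then held a Foxp3 UMI. At day 19 the shares were 17.8% (18 of 101, 10.9 to 26.7) and 33.3% (62 of 186, 26.6 to 40.6). The intervals overlapped widely at day 13 and met at their ends at day 19. CD8-gated T cells (Cd8a or Cd8b1 without Cd4, the other limits being the same), which should lack Foxp3, held one in 1.45% (28 of 1933) and 1.27% (12 of 944) at median depths of 7172 and 8789 UMIs, so the shares in CD4 T cells were above that background. Without thinning the shares were 18.4% and 30.9% at day 13 and 22.8% and 34.9% at day 19. By contig file, the share was lower in expanded cells in 4 of 4 files at day 13 and in 2 of the 3 files of day 19 that held expanded cells. The exception was day 19 file 3, with 20% of expanded and 18.4% of single cells. The day 19 gap rested on how clone size was counted: with every paired barcode counted toward clone size the day 19 shares were 27.2% and 28.6%, and without file 2 they were 22.2% and 29.1%.

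**Figure D2:**
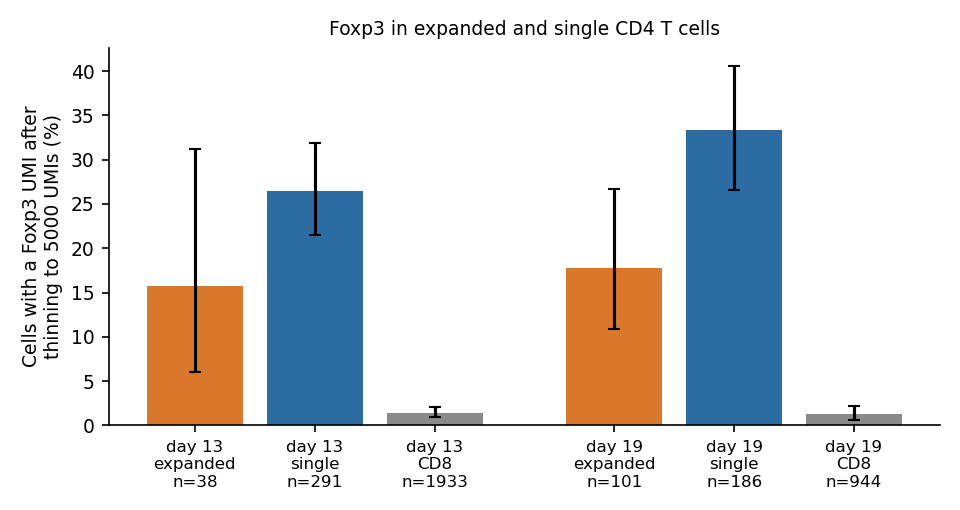
Share of cells, in percent, with at least 1 Foxp3 UMI after thinning every cell to 5000 UMIs, for expanded CD4, single CD4 and CD8-gated cells at day 13 and day 19; error bars are 95% exact intervals over cells. Expanded cells stand at 15.8% and 17.8%, single cells at 26.5% and 33.3%, and CD8-gated cells at 1.45% and 1.27%.

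Expanded clonotypes were sorted by Foxp3 as well. At day 13 13 clonotypes had no cell with a Foxp3 UMI, 1 had one in every cell and 3 were mixed, and at day 19 the numbers were 23, 6 and 7. The Foxp3-negative cells of mixed clonotypes (4 cells at day 13 and 8 at day 19) were set beside the expanded cells of clonotypes without Foxp3 (27 and 70). Their levels are UMIs per 1000000 gene UMIs (CPM) of the summed cells, with no test. Ikzf2, which encodes the regulatory T cell factor Helios, stood at 307 CPM in the mixed cells of day 19 (6 of 8 cells) against 64.1 in the others (20 of 70), and at 610 (3 of 4) against 87.0 (7 of 27) at day 13. Il2ra, the high-affinity interleukin 2 receptor chain, stood at 530 against 45.8 at day 19 and at 640 against 34.8 at day 13. Both genes were thus higher in the mixed cells on both days. Ccr8, a chemokine receptor of tumor regulatory T cells, was not: it stood at 181 against 217 CPM at day 19 and at 152 against 192 at day 13. Ctla4, an inhibitory receptor abundant on regulatory T cells, was at 1144 against 345 CPM at day 19 (8 of 8 cells held a UMI) and at 427 against 235 at day 13. Tcf7, which encodes the TCF-1 factor of naive and memory-like cells, was at 27.9 against 157 at day 19 and 0 against 222 at day 13. The median Foxp3 count of cells with Foxp3 in mixed clonotypes was 3 UMIs at day 13 and 4.5 at day 19, beside 5 and 6 in single cells. A missed Foxp3 RNA and a true absence of Foxp3 cannot be told apart at such counts.

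The largest clonotypes differed from each other. Day 19 clonotype A (15 cells, 0 with Foxp3) held RNA of several effector genes. The granzyme B gene Gzmb was sparse in the 70 expanded cells of day 19 clonotypes without Foxp3, these 15 among them (7 of 70 cells, 67.1 CPM). Nkg7, a granule protein of killer and helper type 1 cells, was found in 15 of 15 cells, at 200 CPM in the lowest cell, 1708 in the median and 4055 in the highest. Cxcr6, a chemokine receptor of tissue T cells, was also found in 15 of 15 cells, from 96.6 through 397 to 2212 CPM. Ifng, which encodes interferon gamma, was found in 12 of 15 cells and ranged from 0 through 150 to 3997. These 3 genes were thus found in most cells of the clonotype, at uneven levels. Klrc1, the NK cell receptor chain NKG2A, stood at 548 CPM (13 of 15 cells), and the inhibitory receptor genes Pdcd1 (PD-1), Lag3 and Tigit at 600, 578 and 480. Tcf7 was at 7.50 CPM (1 of 15 cells), and Ccr7, which guides T cells into lymph nodes, had 0 UMIs.

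Day 19 clonotype B (7 cells, 0 with Foxp3) carried Pdcd1 at 565, Lag3 at 486 and Tigit at 497 CPM, close to clonotype A in level. It differed in the genes of lymphoid homing and memory: Ccr7 was at 1232 CPM (6 of 7 cells) and Tcf7 at 249 (6 of 7). Its Nkg7 was at 158 (2 of 7 cells) and its Cxcr6 at 33.9 (3 of 7). None of its cells held the RNA of antigen-presenting cells above the limit, so Ccr7, which dendritic cells also express, was seen here without it. Clonotype C (4 cells, 0 with Foxp3) carried Cxcr6 at 788 CPM (4 of 4 cells) and Nkg7 at 1116 (3 of 4), with Lag3 at 32.8 (1 of 4). All 3 clonotypes came from contig file 2.

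At day 13, clonotype A (4 cells, 2 with Foxp3) held Tigit at 1112 CPM and Tnfrsf4, the costimulatory receptor OX40, at 1166, each in 4 of 4 cells, and Ikzf2 at 759 in 3 of 4. Clonotype C (3 cells, 2 with Foxp3) was similar, with Tigit at 1672, Tnfrsf4 at 1618 and Ikzf2 at 701 CPM, each in 3 of 3 cells. Both had 0 UMIs of Tcf7. Clonotype B (3 cells, 0 with Foxp3) differed from them in Tcf7, at 156 CPM in 3 of 3 cells, and in Lag3, with 0 UMIs, and held Klf2 at 219 CPM in 3 of 3. The chemokine gene Ccl5 stood at 21906 CPM in clonotype B (1824 in the lowest and 50586 in the highest cell), at 13860 in clonotype C (3284 to 30503) and at 1031 in clonotype A. In 2 of the 3 cells of clonotype B, and in 0 of the cells of A and C, the RNA of antigen-presenting cells was above the limit.

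**Figure D3:**
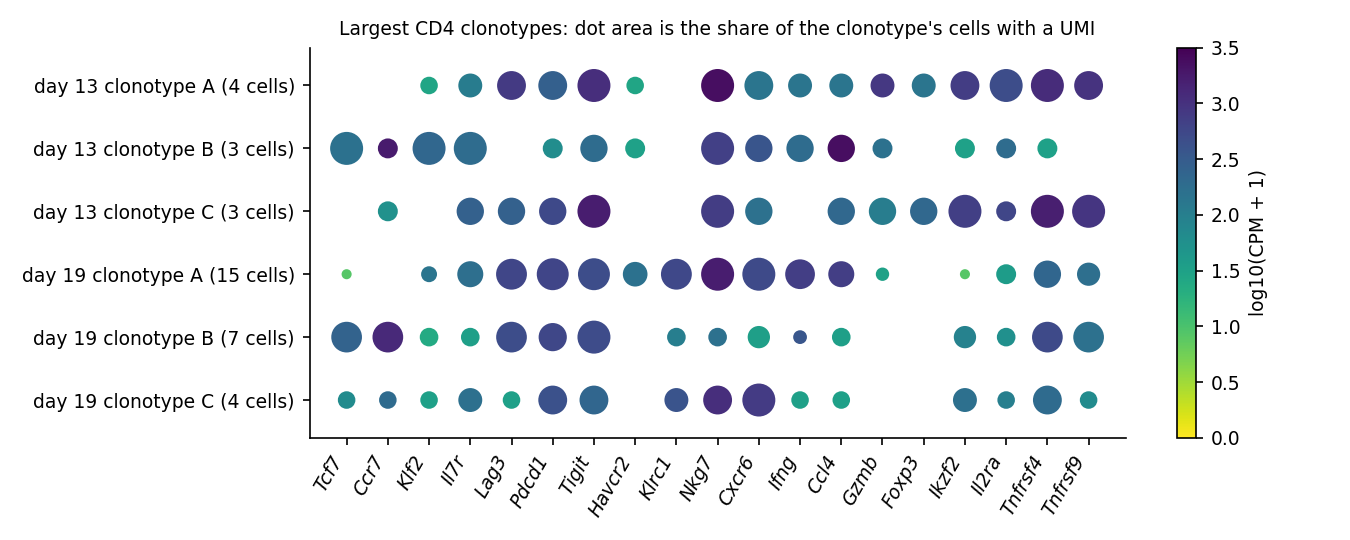
The 3 largest expanded clonotypes of each day (vertical axis) against 19 genes (horizontal axis); dot area is the share of the clonotype's cells with a UMI and colour is log10 of CPM plus 1 over its summed cells. Day 19 clonotype A is filled for Nkg7 and Cxcr6 and nearly empty for Tcf7, while clonotype B is filled for Ccr7 and Tcf7.

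Expanded conventional cells of day 19, meaning those without Foxp3 (78 cells of 30 clonotypes against 121 single cells), had less RNA of some genes of quiescence and tissue exit, such as Klf2, and more of some inhibitory receptor, Th1 effector and cytotoxic genes. Several of these differences shrank or turned side without contig file 2, as given below. Over the 6834 genes with at least 10 UMIs expected in the smaller sum, 2.44% were at least 2-fold higher in expanded cells and 2% at least 2-fold lower (4.45% in all), with a median log2 ratio of 0.01. Of 14 tested genes of quiescence and egress, 3 were at least 2-fold lower and 0 higher, and 11 lay below 0, with a median of -0.51. Klf2, the factor that drives S1pr1 and so keeps T cells circulating, stood at 158 CPM in expanded and 496 in single cells, a log2 ratio of -1.65 (95% interval -1.95 to -1.36). By contig file (58, 11 and 9 expanded cells in files 2, 3 and 4) it was 132 against 506 in file 2, 327 against 391 in file 3 and 152 against 569 in file 4, lower in expanded cells in each. Without file 2 its ratio was -1.08. Klf3, a related factor, was at 26.1 against 80.6 CPM (-1.63).

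Tcf7 was at 144 CPM in expanded and 284 in single cells (-0.98, -1.31 to -0.65). The files did not share that direction: it was 110 against 288 in file 2 and 124 against 260 in file 4, but 386 against 304 in file 3, and the ratio without file 2 was -0.22. Il7r, the interleukin 7 receptor that sustains resting T cells, was at 129 against 219 CPM (-0.76), and -0.52 without file 2. S1pr1, the receptor by which T cells leave tissue, was at 70.1 against 108 (-0.62), and turned to the other side without file 2, at 0.28. Ccr7 went against its list, at 652 against 491 CPM (0.41), with 578 against 470 in file 2, 269 against 740 in file 3 and 1343 against 200 in file 4. Without cells holding RNA of antigen-presenting cells its ratio was 0.10.

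Of 14 tested inhibitory receptor and exhaustion genes, 3 were at least 2-fold higher and 0 lower, 12 lay above 0, and the median was 0.62. Lag3, an inhibitory receptor that binds MHC class II, was at 385 CPM in expanded and 201 in single cells (0.94, 0.68 to 1.20), with UMIs in 46 of 78 and 36 of 121 cells. It was 419 against 187 in file 2 and 362 against 128 in file 4 but 199 against 321 in file 3, and 0.43 without file 2. Pdcd1 was at 477 against 302 CPM (0.66, 0.44 to 0.88), higher in files 2 and 3 (496 against 303, 643 against 345) and not in file 4 (248 against 282). Tigit was at 525 against 337 CPM (0.64) and higher in expanded cells in each of the 3 files. Its ratio without file 2 was 0.54. Havcr2, which encodes TIM-3, was at 63.2 against 26.3 (1.27, 0.57 to 1.99), but 1 clonotype gave 46% of its expanded UMIs and the ratio without file 2 was 0.29. Entpd1 and Cd38, both enzymes of extracellular nucleotide breakdown, stood at 46.7 against 21.7 (1.11) and 35.7 against 17.2 CPM (1.06).

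Of 17 tested Th1 and effector genes, 6 were at least 2-fold higher and 0 lower, with a median of 0.30, and of 10 tested cytotoxic genes 3 were higher (Klrd1, Ctsw and Gzmc) and 0 lower, with a median of 0.83. Gzmc, however, had 97.5% of its 40 expanded UMIs in 1 cell. Ifng was at 340 CPM in expanded and 126 in single cells (1.43, 1.13 to 1.74), with UMIs in 36 of 78 and 45 of 121 cells. It was 415 against 123 in file 2, 152 against 192 in file 3 and 105 against 59.2 in file 4, and without file 2 the ratio was -0.032. Day 19 clonotype A gave 38.9% of its expanded UMIs. Cxcr6 was at 236 against 110 CPM (1.11, 0.77 to 1.46), and 58.4 against 195 in file 3. Its ratio without file 2 was -0.20, and that of Nkg7 (766 against 405 CPM, 0.92) was -0.52. Without file 2 the ratios of Ifng, Cxcr6 and Nkg7 thus lay below 0, although Ifng was also higher in expanded cells in file 4. Without the largest clonotype of each file the ratios were 1.11 for Ifng, 0.75 for Cxcr6 and 0.63 for Nkg7. Bhlhe40, a factor that supports cytokine production by helper cells, held in each file, at 816 against 594, 701 against 527 and 1486 against 506 CPM, with 0.65 over all and 1.03 without file 2. Il12rb2, a chain of the interleukin 12 receptor, was at 70.1 against 28.1 CPM (1.32), and 1 clonotype gave 51% of its expanded UMIs.

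Klrc1 ranked second among the named genes. It was at 199 CPM in expanded and 21.7 in single cells (3.20, 2.57 to 3.89), with UMIs in 29 of 78 and 10 of 121 cells. It was 253 against 23.8 in file 2, 23.4 against 14 in file 3 and 66.7 against 9.11 in file 4, higher in each, and 1.26 without file 2. Day 19 clonotype A gave 50.3% of its expanded UMIs, and without the largest clonotype of each file (57 of 78 expanded cells left) the ratio was 2.63. Klrd1, which encodes CD94, the partner chain of NKG2A and a gene of the cytotoxic list, was at 291 against 80.6 CPM (1.85, 1.49 to 2.23). Serpine2, an extracellular protease inhibitor, ranked first at 71.5 against 5.43 CPM (3.72), with UMIs in 14 of 78 and 5 of 121 cells and 65.4% of them in 1 clonotype. Tmem163, a zinc transporter, was at 48.1 against 9.05 CPM (2.41; 21 of 78 and 7 of 121 cells), and Fam178b at 37.1 against 6.34 (2.55). The other genes named by rule, Ip6k2, Cmtm3 and Bnip3, had ratios of 2.04, 1.92 and 1.76, and Hist2h2bb, at 3.10, drew 91.9% of its UMIs from 1 cell. At their lowest over the alternatives, Serpine2, Ip6k2 and Cmtm3 came within 2-fold, at 0.80, 0.72 and 0.83.

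Genes switched on within hours of receptor signalling were split. Of 15 tested, 1 was at least 2-fold higher and 3 lower, with a median of -0.03. Egr1 was at 153 CPM in expanded and 416 in single cells (-1.45; 30 of 78 and 73 of 121 cells), Myc at 27.5 against 94.2 (-1.78), and Egr2 had a ratio of -2.10. Nr4a2, an orphan nuclear receptor of the same response, had 1.08, and Nr4a1 0.11. Interferon response genes lay low: of 15 tested, 13 were below 0 and 2 at least 2-fold lower, with a median of -0.50. Ifit3 was at 100 against 235 CPM (-1.23) and Isg15 at 466 against 809 (-0.79). The genes ranked lowest were all sparse, with 4 or 5 UMIs in expanded cells: Naaa at -2.26, Lmo4, Spryd7 and Egr2 at -2.10, Grwd1 at -2.04, Zfp467 and Ydjc at -1.98, and Zfp407 at -1.83. None kept its call in every alternative. Naaa turned to 1.52, and the others came within 2-fold: Egr2 at -0.067, Grwd1 -0.12, Ydjc -0.43, Zfp467 -0.48, Spryd7 -0.62, Lmo4 -0.65 and Zfp407 -0.86.

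Some effector genes of the fixed list were carried by few cells. Gzmb, which encodes granzyme B, was at 177 CPM in expanded and 317 in single cells (-0.84), but 0.37 when each clonotype was weighted equally and -2.24 without cells of any clonotype with Foxp3, a limit that removed expanded cells alone. The 8 Foxp3-negative cells of mixed clonotypes gave 85 of its 129 expanded UMIs, and the other 70 expanded cells stood at 67.1 CPM. Ccl3 was at 63.2 against 9.96 CPM (2.67), with 56.5% of the expanded UMIs in 1 cell. Ccl4 had 1.04 over all cells and 3.04 without those holding RNA of antigen-presenting cells, and Ccl5 0.12 and -1.30. Il2 was at -0.41 with 86% of its expanded UMIs in 1 cell, and Mki67, a proliferation marker, at 0.62 but -1.11 without the largest clonotype of each file. Cycling cells, those with a UMI of Mki67, Top2a or Cdk1, were 28.2% of expanded and 33.9% of single cells. The 20 cell cycle genes had a median of 0.08, with 1 at least 2-fold higher and 0 lower. The other fixed genes lay within 2-fold: Tox had 0.54, Tnfrsf9 0.45, Bcl6 0.36, Ctla4 0.35, Tbx21 0.30, Izumo1r 0.24, Icos 0.18, Ccr8 0.18, Il2ra -0.04, Gzmk -0.13, Tnfrsf4 -0.16, Ikzf2 -0.39 and Il21 -0.85.

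**Figure D4:**
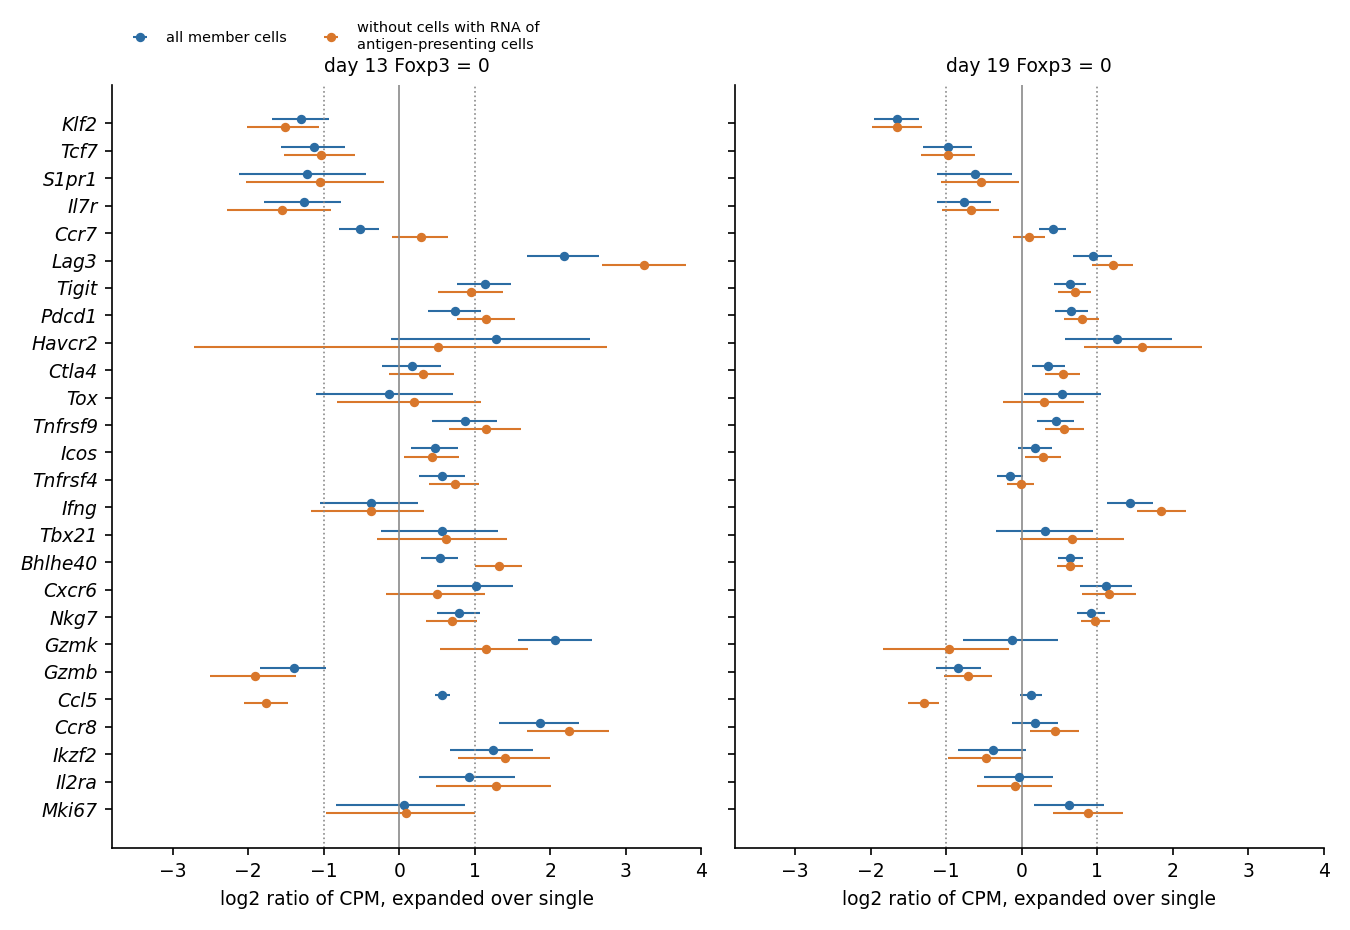
Log2 ratio of CPM, expanded over single CD4 T cells without Foxp3, for 26 genes at day 13 (left) and day 19 (right); points are ratios over all cells (blue) or without cells holding RNA of antigen-presenting cells (orange), bars are 95% intervals of counting error, and dotted lines mark 2-fold. Klf2 lies below the lower line on both days (-1.30 and -1.65) and Lag3 lies above 0 on both (2.18 and 0.94); Havcr2 at day 13 had too few UMIs to be tested.

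The levels were also read against clone size, over 121 single cells, 36 cells in clonotypes of 2, 20 in clonotypes of 3 or 4 and 22 in the pair of clonotypes with 5 or more. Klf2 stood at 496, 169, 218 and 90.2 CPM in that order, Tcf7 at 284, 172, 146 and 104, and S1pr1 at 108, 109, 46.8 and 36.1. Lag3 stood at 201, 316, 317 and 541 CPM, Pdcd1 at 302, 460, 380 and 586, and Cxcr6 at 110, 198, 203 and 320. The largest step for Klf2 was therefore between single cells and clonotypes of 2, and the largest for Lag3 between clonotypes of 3 or 4 and those of 5 or more. Klrc1 stood at 21.7, 125, 125 and 370 CPM, and Ifng at 126, 297, 135 and 577. The last bin is clonotypes A and B alone, which differ from each other as described above. The bins count gated cells. By all paired barcodes clonotype C (23), in the bin of 3 or 4, was larger than clonotype B (11).

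**Figure D5:**
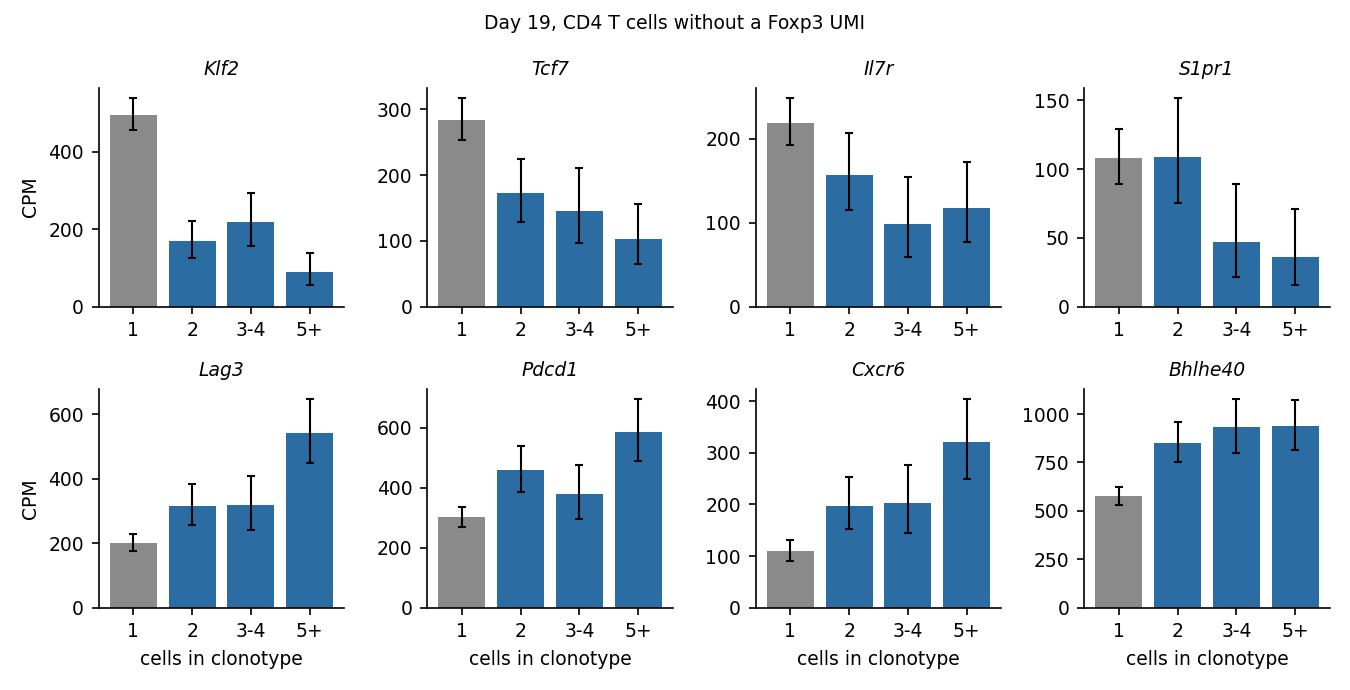
CPM of 8 genes in day 19 CD4 T cells without Foxp3 by the size of their clonotype (1, 2, 3-4 and 5 or more cells), with exact 95% Poisson intervals of the summed counts. Klf2 is highest in single cells (496 CPM) and Lag3 in clonotypes of 5 or more (541 CPM).

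Expanded conventional cells of day 13 (31 cells of 16 clonotypes against 201 single cells) again had less RNA of quiescence genes and more Lag3, and here also more Ccr8 and Plac8. Over 3748 tested genes 1.65% were at least 2-fold higher in expanded cells and 3.31% at least 2-fold lower (4.96% in all), with a median of -0.01. Of 13 tested genes of quiescence and egress, 6 were at least 2-fold lower and 0 higher, and 12 lay below 0, with a median of -0.92. Klf2 was at 240 CPM in expanded and 590 in single cells (-1.30, -1.69 to -0.93), and by file (10, 6, 6 and 9 expanded cells) at 277 against 572, 206 against 780, 275 against 528 and 194 against 417. Tcf7 was at 194 against 424 CPM (-1.13, -1.57 to -0.71), and by file at 217 against 405, 284 against 383, 103 against 411 and 194 against 536. Both were lower in expanded cells in 4 of 4 files, and the expanded and single values of Tcf7 and of Klf2 did not overlap between files. Il7r was at 137 against 327 CPM (-1.26) and S1pr1 at 53.3 against 125 (-1.23; 10 of 31 and 108 of 201 cells), each lower in expanded cells in 4 of 4 files. Lef1, a partner factor of TCF-1, had a ratio of -1.32. Igfbp4, a gene of naive T cells, had 0 UMIs in 31 expanded cells, which allows a share of cells with a UMI of up to 9.68%, against 158 UMIs in 17 of 201 single cells, 40.5% of them in 1 cell, and with the floor of 3 counts in place of 0 its log2 ratio was at most -3.12.

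Inhibitory receptors lay high, with 3 of 9 tested genes at least 2-fold higher, 0 lower and a median of 0.47. Lag3 was at 255 CPM in expanded and 56.4 in single cells (2.18, 1.70 to 2.65), with UMIs in 12 of 31 and 24 of 201 cells. By file it was 433 against 110, 25.8 against 43.3, 51.5 against 28.9 and 327 against 66.5, so that files 1 and 4 carried the difference. Without cells holding RNA of antigen-presenting cells its ratio was 3.24. Tigit was at 339 against 155 CPM (1.13, 0.76 to 1.49), and by file at 361 against 192, 155 against 117, 172 against 137 and 522 against 207. Pdcd1 was at 335 against 201 CPM (0.74), and Cxcr6 at 175 against 86.5 (1.02), each higher in expanded cells in 4 of 4 files. Where expanded meant 3 or more cells, Pdcd1 had -0.78. Havcr2, Il2, Il21 and Bcl6 had too few UMIs to be tested.

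The genes ranked highest at day 13 included Plac8, a small protein of activated leukocytes, at 1188 CPM in expanded and 411 in single cells (1.53, 1.33 to 1.73). By file it was 481 against 478, 671 against 327, 2128 against 412 and 1480 against 466. Gzmk, a granzyme of memory-like effector cells and one of the genes of the fixed list, was at 236 against 56.4 CPM (2.07), but -0.53 where expanded meant 3 or more cells. Ccr8 was at 187 against 51.4 (1.86; 10 of 31 and 21 of 201 cells). Tent5a, a poly(A) polymerase, was at 126 against 44.5 (1.50), and Bmyc at 99.0 against 28.2 (1.81, and 0.42 without file 1). Fdps, of cholesterol synthesis, had 1.58, Ctnna1 1.42 with 59% of its UMIs in 1 cell, and Ccl4 2.05 with 75.5% in 1 cell. Of the 9 tested core genes of regulatory T cells, 6 lay above 0 and 3 below, from Izumo1r at -0.48 to Ikzf2 at 1.24. Il2ra had 0.92, and Tnfrsf9, of the effector regulatory T cell list, 0.88. When cells of any clonotype with Foxp3 were also left out, which removed 4 expanded and 0 single cells, Ikzf2, Il2ra and Tnfrsf9 had 0.43, -0.74 and -0.54, Tigit 0.40, Lag3 1.73 and Tcf7 -0.93.

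At the other end stood Fscn1, at 7.62 against 248 CPM (-5.03). It is an actin-bundling protein of mature dendritic cells, and without cells holding RNA of antigen-presenting cells its ratio was -0.86. Fscn1 is among the genes that define that limit, so this change follows in part from the limit. Rflnb had 1 UMI in expanded and 102 in single cells (-4.07), and Atp6v1h, Cd63, Ube2c, Uri1, Actn1 and Il6ra had -3.28, -3.23, -2.43, -2.02, -1.93 and -1.86, each on 2 to 5 expanded UMIs. In an alternative Rflnb, Atp6v1h, Ube2c and Il6ra came within 2-fold, at -0.13, -0.34, -0.072 and -0.24. Gzmb was at 183 against 482 CPM (-1.40). Among effector genes, Nkg7 had 0.79, Bhlhe40 0.54 and Ifng -0.37. Ccl5 was at 3827 against 2581 CPM (0.57), with 69.7% of the expanded UMIs in 1 clonotype, and -1.76 without cells holding RNA of antigen-presenting cells, while Ccr7 had -0.52 and 0.29. Glycolysis and hypoxia genes lay above 0 in 10 of 11 tested, with 1 at least 2-fold higher, 0 lower and a median of 0.29. Tpi1, a glycolytic enzyme, had 1.22 and Pfkp 1.00. Interferon response genes, low in the expanded cells of day 19, lay above 0 in 12 of 15 at day 13, with a median of 0.20 and 0 at least 2-fold apart. The difference between the days was not tested.

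Expanded cells with Foxp3 at day 19 (23 cells of 13 clonotypes against 65 single cells) had less Ccr7 and Nrp1, and 3 of 20 cell cycle genes were at least 2-fold higher, while their core regulatory T cell genes lay within 2-fold. Over 4588 tested genes 1.31% were at least 2-fold higher and 4.36% at least 2-fold lower (5.67% in all), with a median of -0.02. Of 11 tested core genes of regulatory T cells, 0 were at least 2-fold apart, and the median was -0.10. Ikzf2 had a ratio of -0.10, Ctla4 -0.52, Il2ra 0.53, Tnfrsf4 0.42 and Icos -0.12. Gzmb was at 1329 CPM in expanded and 1382 in single cells (-0.06). Nrp1, neuropilin 1, a surface protein of thymus-derived regulatory T cells, was at 3.03 against 48.9 CPM (-4.01), with UMIs in 1 of 23 and 24 of 65 cells. That ratio was within 2-fold without file 2 (-0.66), without cycling cells (-0.84) and with no myeloid UMIs allowed (-0.78). Ccr7 was at 60.5 against 340 CPM (-2.49, -3.22 to -1.83), and by file at 76.2 against 453, 24.2 against 212 and 19 against 96. The share of cells with a Ccr7 UMI was alike (7 of 23, 30.4%, and 20 of 65, 30.8%), and 1 single cell held 26.5% of the single UMIs. The CPM of Ccr7 was lower in expanded cells in each of the 3 files, and its ratio without cells holding RNA of antigen-presenting cells was -2.51. It was -1.43 with clone size over all paired barcodes and -0.84 without the limit on myeloid UMIs. Tcf7 had UMIs in 0 of 23 expanded cells, which allows a share of cells with a UMI of up to 13.0%, and in 9 of 65 single cells (13.8%), so that no difference was detectable at this depth.

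Other genes of trafficking and of helper cells were also apart in these cells. Sh2d1a, the SAP adaptor of T and B cell contact, was at 12.1 against 92.7 CPM (-2.94, in 4 of 23 and 33 of 65 cells). It rests on 4 expanded UMIs and came within 2-fold in an alternative, at -0.91. The chemokine receptor genes Ccr4 and Cxcr3 had ratios of -2.12 and -1.34, 3 of 8 tested genes of that list being at least 2-fold lower and 0 higher. Wdr20, Gadd45g, Cxcl9, Chst12 and Gch1 completed the lowest ranks at -3.05, -2.98, -2.80, -2.77 and -2.54. Wdr20, Gadd45g, Chst12 and Gch1 rest on 2 or 3 expanded UMIs and came within 2-fold in an alternative, at -0.26, -0.34, -0.13 and -0.28. Tbx21, the T-bet factor of type 1 cells, was at 75.7 against 33.5 CPM (1.18; 13 of 23 and 17 of 65 cells), but 0.049 with at least 8000 UMIs a cell and 0.28 where expanded meant 3 or more cells. Lag3 was at 400 against 198 (1.01), but 0.06 without cells holding RNA of antigen-presenting cells and -1.08 without file 2.

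Among the genes ranked highest, Cdca7, a gene induced in dividing cells, was at 96.9 against 30.9 CPM (1.65) and Mcm7, a subunit of the replicative helicase, at 209 against 76 (1.46). Umps and Atic, enzymes of nucleotide synthesis, were each at 99.9 against 36.1 CPM (1.47). Rln3, Taf11 and Odf2 had 1.59, 1.50 and 1.47, and the 82 UMIs of Cxcl2, first by rank at 4.78, came from 1 cell. Of the cell cycle genes 0 were at least 2-fold lower, and their median was 0.31. Mki67 lay below 0, at -0.25, and ran from -1.01 to 3.78 over the alternatives. Without file 2 the ratio of Cdca7 was -0.54. At their lowest over the alternatives, Mcm7, Umps, Atic, Rln3 and Taf11 had 0.80, 0.73, 0.70, 0.91 and 0.57, each within 2-fold. Cycling cells were 65.2% of expanded (95% exact interval 42.7 to 83.6) and 43.1% of single cells (30.8 to 56.0), and the intervals overlap. The median depth was 11331 UMIs in expanded and 8917 in single cells. With cycling cells left out, 103 of 1200 tested genes (8.58%) were at least 2-fold apart, in place of 260 of 4588. Glycolysis genes lay above 0 in 11 of 13, with a median of 0.39.

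At day 13 the expanded cells with Foxp3 were 7 cells of 4 clonotypes against 90 single cells, and 963 genes were tested, of which 3.84% were at least 2-fold higher and 10.5% at least 2-fold lower (14.3% in all), with a median of -0.07. Klf2 was at 63.9 CPM in expanded and 360 in single cells (-2.49; 2 of 7 and 70 of 90 cells). Its list was split, with 1 of 5 tested genes at least 2-fold higher, 2 lower and a median of 0.45, which was -2.05 without cells holding RNA of antigen-presenting cells. Ccr7 had 0.89 and -2.92, and Il7r 0.45 and 0.25. Tigit had 1.36, Icos 1.32 and Tnfrsf18, the costimulatory receptor GITR, 1.12, and without cells holding RNA of antigen-presenting cells 0.94, 0.98 and 0.77, each within 2-fold. Nkg7 was at 1518 against 239 CPM (2.67) and Ccl5 at 8759 against 1636 (2.42), with 59% and 52% of the expanded UMIs in 1 cell. Of the other genes ranked highest, Fscn1 (2.35), Tuba1b (2.06) and Tubb5 (1.81, with 71.8% of its expanded UMIs in 1 cell) also came mostly from 1 cell. Pglyrp1 and Hist1h1e had 1.81 and 1.66, and Alyref had 1.58 but -0.58 in an alternative. Of the genes ranked lowest, H2-Ab1 had -5.22 and Il1b -4.05, and without cells holding RNA of antigen-presenting cells (6 of the 7 expanded and 61 of the 90 single cells were left) they had 1.27 and 0.95. H2-Ab1 is among the genes that define that limit, so the change in its ratio follows in part from the limit. Ctsh, Tyrobp and Spi1, also of antigen-presenting cells, had -4.06, -2.93 and -2.70. The interferon-induced genes Ifi208 and Ifit1 had -3.79 and -3.16 and Ms4a4b -2.69, and in the alternatives that were run these 3 lay at -1.34 or lower. Of the macrophage and microglia markers 6 of 6 tested were at least 2-fold lower in expanded cells, at a summed 3245 against 19175 CPM, with a median of -2.65 that was 0.45 without those cells.

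Markers of other cells were read in the same way. In day 19 cells with Foxp3, 5 of 23 expanded and 9 of 65 single cells held RNA of antigen-presenting cells above the limit. The macrophage and microglia markers there summed to 8879 against 5846 CPM, with 0 of 8 at least 2-fold apart and a median of 0.40, and the dendritic cell markers to 648 against 1191 CPM, with 2 of 3 at least 2-fold lower. In conventional cells of day 19 the 15 macrophage and microglia markers summed to 4625 CPM in expanded and 2852 in single cells, with 1 of 12 tested at least 2-fold higher and a median of 0.36, which was -0.33 without cells holding RNA of antigen-presenting cells. At day 13 they summed to 9487 and 6542 CPM, with 1 of 7 at least 2-fold higher and a median of 0.54, and without those cells to 625 and 439 CPM, with a median of 0.63. The 9 dendritic cell markers summed to 1229 against 1157 CPM at day 19, with 2 of 4 tested at least 2-fold higher, Cd209a (49 against 3 UMIs) and Fscn1 (43 against 12), and a median of 1.43, which was -0.23 without those cells. At day 13 they summed to 2095 against 1954 CPM, with 1 of 3, Fscn1, at least 2-fold lower, and a median of -0.52, which was 0.29 without those cells. B and plasma cell markers stood at 92.1 against 92.3 CPM at day 19 and 91.4 against 259 at day 13, tumor and brain cell markers at 137 against 134 and 126 against 129, and erythroid markers at 0. The 7 markers of NK and gamma-delta T cells summed to 55.0 against 24.4 CPM at day 19, and 4 of the 7 (Ncr1, Trdc, Tcrg-C1 and Klra8) had 0 UMIs in expanded cells. The 1 tested, Klre1, had 26 against 2 UMIs, with 73.1% of the former in 1 clonotype. At day 13 these markers were at 0 in expanded cells and 45.8 CPM in single cells. Their part in the differences above was not tested beyond the ratios without such cells. H2-Aa, H2-Ab1, Tyrobp and Fscn1 are in these lists and also define the limit, so the values without such cells follow in part from it.

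The remaining lists are given for conventional cells. Costimulatory receptors had 0 of 10 tested genes at least 2-fold apart at day 19, with a median of -0.05, and the CD3 complex and its proximal signalling 0 of 13 on both days, with medians of 0.19 and 0.12 at day 19 and day 13. Annexins, galectins and S100 genes had 0 of 13 on both days, at 0.01 and 0.23, and apoptosis regulators 0 of 10 and 0 of 8, at -0.02 and -0.03. Tfh-like genes had 1 of 10 lower at day 19 and a median of 0.06. Th17 genes had 1 of 5 higher, Ccr6 (1.02), and 1 lower, the lower being Il22, whose 48 UMIs came from 1 single cell. Core regulatory T cell genes had 0 of 10 at least 2-fold apart at day 19, at 0.00, and 1 of 9 at day 13, at 0.17. Effector regulatory T cell genes had 1 of 12 higher at day 19, at 0.19, and 2 of 6 higher (Ccr8 and Tigit) and 1 lower (Gzmb) at day 13, at 0.72. Residency genes had 1 of 10 higher, and chemokine receptors 3 of 11 higher (Ccr6, Cxcr6 and Cx3cr1), at day 19.

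Protein was read from 23 tags for T cell proteins, picked from the 138 antibody tags, with isotype controls set apart. CD73, an enzyme that makes adenosine, was at least 2-fold higher on expanded conventional cells of day 19, at 95.8 against 40.3 per 10000 tag UMIs (1.25), and TIM-3 on those of day 13, at 97.3 against 33.5 (1.54). The CD73 difference came from contig file 3 (412 against 44.0), since file 2 had 40.7 in both and file 4 42.3 against 32.5. The TIM-3 difference came from file 2 (234 against 34.0), and its other files lay at 32.2 to 34.6 against 32.2 to 35.6. Other tags stood apart in the same files. In day 13 file 2 CD69 was at 182 against 74.3, while tags other than it and TIM-3 were lower on expanded cells, isotype controls included. There PD-1 was at 86.0 against 119.9, TIGIT at 214 against 291 and isotype IgG1 at 20.4 against 27.2, as shares of all tag UMIs. In day 19 file 3 GITR was at 102 against 22.1. The tags of the receptors whose RNA was higher did not differ in this way: at day 19 PD-1 was at 124.2 on expanded and 124.0 on single cells, LAG-3 at 191.6 and 192.4 and TIGIT at 277.6 and 277.3. At day 13 the log2 ratios were -0.12, -0.083 and -0.13, with the low values in file 2. The isotype controls IgG1, IgG2a and IgG2b had -0.058, -0.074 and -0.14 there over all files. In cells with Foxp3, 0 of 23 tags were at least 2-fold apart on either day. The CD4 tag itself was at 13.8 on expanded and 16.0 on single conventional cells of day 19, within the 13.7 to 25.6 of the isotype controls.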

How the data were processed

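The deposited matrices hold whole-number counts of UMIs for 32285 genes, 138 antibody tags and 4 multiplexing tags, and the receptor contigs were deposited in 4 files a day. Per the submitters' processing notes, bcl2fastq 2.20, Cell Ranger 4.0.0, STAR 2.7.5c, the mm10 build, Seurat and R 4.1.2 were used, without a stated role or order. Counts were read with Python 3.11.15, NumPy 2.4.6, SciPy 1.17.1 and pandas 2.3.3.

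UMIs were summed over expanded and over single cells, scaled to CPM, and compared as log2 ratios with exact conditional (Clopper-Pearson) 95% intervals, which cover counting error only. PCR duplicates are removed by UMIs, but cells of a clonotype or a mouse are not independent. With 1 matrix a day no p-value was computed. Genes needed 10 UMIs expected in the smaller sum, and a sum of 0 was set to 3 counts. Doublets were not called. The depth, summed per group compared, ranged from 62564 UMIs (day 13 expanded cells with Foxp3) to 1594931 (day 13 single cells without Foxp3).

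Named by rule were, per comparison, the 8 genes highest and the 8 lowest by ratio on the same side in each contig file with 10 cells of each kind and with clonotypes weighted equally, leaving out receptor, ribosomal, mitochondrial, Gm, Rik, Xist, Tsix and Y-linked genes, besides 34 fixed genes, 1 of which is not reported here, and 26 lists. Other genes, and the order of presentation, were chosen after their values were seen. The members, lists and fixed genes were chosen with earlier results of these data known. Of 23 alternatives, 20 were planned and 3 were chosen after seeing the data: no limit on myeloid UMIs, each file's most common multiplexing tag only, and the limit of 10 UMIs on RNA of antigen-presenting cells, applied before clone size was counted. The ratio calculation was tested on simulated data.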

Additional observations from a re-analysis of the deposited data

How the results depend on the processing

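No paired analysis was possible because the labels give each day 1 sample of a kind and no test was made. Stratified by contig file, which sets expanded beside single cells within a file, the 4 comparisons in the order below had 340, 272, 193 and 115 genes at least 2-fold apart. The numbers of genes at least 2-fold apart depended on the filter. In conventional cells of day 19 there were 304, with 1325 without a filter on low counts, 64 with 30 UMIs expected, 487 with clone size over all paired barcodes, 465 with clonotypes weighted equally and 189 to 440 with a contig file left out. In day 19 cells with Foxp3 there were 260, and in the same order 1537, 31, 422 and 423, with 103 without cycling cells, 74 with no myeloid UMIs and 139 to 279 with a file left out. In conventional cells of day 13 there were 186, with 1639 without the filter, 25 with 30 UMIs expected, 117 where expanded meant 3 or more cells and 140 to 225 with a file left out. In day 13 cells with Foxp3 there were 138, with 2084, 30, 87 without the largest clonotype of each file, 86 without the 8% of cells with the most UMIs, 84 with at least 2 Foxp3 UMIs (the stricter class), 91 without RNA of antigen-presenting cells and 84 to 127 with a file left out. Fewer genes were tested in several of these settings, so a lower count was not always a lower share. Of the genes tested, 189 of 2921 (6.47%) were apart in conventional cells of day 19 without file 2, beside 304 of 6834 (4.45%). In day 19 cells with Foxp3 the shares were 8.58% without cycling cells (103 of 1200) and 4.89% with no myeloid UMIs (74 of 1514), beside 5.67%, and in conventional cells of day 13 15.9% with 3 or more cells (117 of 735), beside 4.96%. With 30 UMIs expected, the shares of these 3 comparisons were 1.79%, 1.79% and 1.91%. Beyond the number of genes tested the cause was not tested.

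The Foxp3 share of day 13 expanded cells was 40% where expanded meant 3 or more cells and 11.5% to 18.8% with a file left out (single cells 24.4% to 28.5%). That of day 19 expanded cells was 27.2% with clone size over all paired barcodes and 16.9% to 22.2% with a file left out (single cells 29.1% to 37.2%).

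Some named genes changed side, and the cause was not tested. With a contig file left out, the ratios of conventional cells at day 19 ranged for Cxcr6 from -0.20 to 1.71, for Ifng from -0.032 to 1.83 and for Hist2h2bb from -0.45 to 4.14, the end on the other side in each case being without file 2. With at least 8000 UMIs Cxcr6 had -0.21. Hist2h2bb had -0.83 without the largest clonotype of each file, Bnip3 -0.67 with no myeloid UMIs, and Naaa 1.52 with clone size over all barcodes and 0.86 without the myeloid limit. In day 19 cells with Foxp3, Lag3 had -0.19 with 3 or more cells and -1.08 without file 2, Cdca7 -0.54 without file 2 and up to 1.98 without another, Odf2 -0.84 without cycling cells, and Ccl5 0.30 with all barcodes and 1.64 without the myeloid limit. In conventional cells of day 13, Gzmk had -0.53 with 3 or more cells and -0.88 with 8000 UMIs, Cd63 0.10 and Gzmb 0.21 with all barcodes, Ctnna1 -0.011 without cycling cells, and Ccl4 -0.14 without the largest clonotype of each file, -0.29 without file 4 (2.53 without file 3) and -0.80 without the myeloid limit. In day 13 cells with Foxp3, Tuba1b had -1.21 without the largest clonotype of each file, -0.79 without the 8% of cells with the most UMIs, -1.86 with the stricter class and -1.02 without file 1 (2.28 without file 2), Alyref -0.58 with the stricter class, Il1b 0.20 with all barcodes, 0.63 without the myeloid limit and 0.95 without RNA of antigen-presenting cells, and H2-Ab1 0.022 and 1.27 in the latter pair. In day 13 cells with Foxp3, 4 alternatives were not run for want of 5 expanded cells: 3 or more cells, no cycling cells, 8000 UMIs and leaving out file 4.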

Other observations

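The day 19 clonotypes of 5 or more cells were not alike, and one with fewer gated cells resembled the second of them. It was chosen after its values were seen. Clonotype E of day 19 (3 gated cells, 14 paired barcodes, TRBV19) held Ccr7 at 1420 CPM (2 of 3 cells), Lag3 at 955 (3 of 3) and Tcf7 at 77.4 (2 of 3), with 0 UMIs of Cxcr6, beside 1232, 486, 249 and 33.9 CPM in clonotype B, which also used TRBV19. That gene was used by 6 of 36 expanded clonotypes of day 19, clonotype F among them, and by 21 of 186 single ones. Among clonotypes with Foxp3, a pair stood high for granzyme B RNA: day 19 clonotype F (3 cells, 2 with Foxp3) held Gzmb at 5511 CPM in 3 of 3 cells and day 13 clonotype E (2 cells, both with Foxp3) at 9918. Over all expanded cells with Foxp3, Gzmb stood at 1329 CPM at day 19 and at 2637 at day 13, where 1 clonotype gave 88.5% of the UMIs.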
